A study of Homo sapiens with 6 samples.

Results

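The genes described here changed in the same direction with both short hairpin RNAs against BCAT1 in SK-N-BE(2) neuroblastoma cells. A gene was included where its level in all 4 knockdown libraries lay above both control libraries, or in all 4 lay below both. Levels are CPM, counts brought to a common library size, scaled with the TMM method, which corrects library totals for differences in composition. Of 18734 genes with enough counts to test, 8543 (45.6%) met this rule. They comprise 4114 shared higher genes (22% of those tested) and 4429 shared lower genes (23.6%). Among all table rows with any count, 9788 met the rule, 4513 higher and 5275 lower. The levels in these libraries chose the genes, so the absence of overlap between control and knockdown is their definition and not a finding. For the same reason the tests against control below give only the size and error of each change. The size of the difference between the hairpins uses no control library, although its error and p-value use a spread estimated from all 6 libraries. That difference was not the contrast of the rule, but the rule read the same 4 knockdown libraries, so shares over the set are descriptions.

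BCAT1 is the cytosolic branched-chain aminotransferase. It moves the amino group of leucine, isoleucine or valine to alpha-ketoglutarate, giving glutamate and a branched-chain keto acid, and the reaction is reversible. The enzyme is abundant in embryonic tissues, brain and several tumours, and MYC proteins are known to drive its transcription. When amino acids run short, uncharged transfer RNAs activate the kinase GCN2, translation slows, and the transcription factor ATF4 induces amino acid transporters, synthetases and stress genes. SK-N-BE(2) is an established human neuroblastoma line with amplified MYCN, the gene of N-Myc.

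Messenger RNA was sequenced from 3 groups of 2 libraries. The control group carried a control hairpin (shControl, shNC), and the others carried hairpin 1 (shBCAT1#1) or hairpin 2 (shBCAT1#2) against BCAT1. All groups were the same cell line. For the time after hairpin delivery and the making of the cell populations, nothing was given in the sources used here. The study, by its title, asks how BCAT1 keeps N-Myc stable. No label ties a replicate to its own culture, so the p-values cover the spread among these libraries, which may be technical. The 2 control libraries served both hairpins.

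Total counts ran from 32333416 to 39321388 per library, and log2 CPM correlated across genes at 0.988 to 0.989 within groups and 0.968 to 0.974 between them. Adrenergic neuroblastoma markers were present in every library (8 of 9 tested, summed level 1518 to 1541 CPM in control, 1254 to 1331 with hairpin 1 and 1089.9 to 1091 with hairpin 2). Of the 8, 4 were shared lower and 1 shared higher, GATA3, with means of 153 CPM in control, 180 with hairpin 1 and 187 with hairpin 2. DBH (37.6, 76.3 and 15.1 CPM in that order) and TH (27.8, 37.2 and 18.2 CPM) were higher with hairpin 1 and lower with hairpin 2. Of the markers of other lineages, CD3E, SOX10 and HBB had no counts and PECAM1 and PTPRC stayed under 1 CPM, whereas CD68, KRT19, VWF and MITF were present, with control means of 35.7, 9.61, 6.63 and 5.47 CPM. The 9 fibroblast marker genes, most of which this line expresses, summed to 1384 to 1391 CPM in control, 887 to 889.6 with hairpin 1 and 1013 to 1018 with hairpin 2, and 6 of 8 tested were shared lower genes. THY1 made the largest part of that sum, with means of 646 CPM in control, 399 with hairpin 1 and 330 with hairpin 2. COL1A1 (231, 157 and 239 CPM in that order) and PDGFRA (107, 81.3 and 120 CPM) were lower with hairpin 1 but not with hairpin 2. In bulk RNA, fewer cells of a type and less RNA per cell cannot be told apart.

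BCAT1 itself (chr12:24810022-24949459, hg38, minus strand) stood at 459 and 475 CPM in the control libraries, 55.8 and 55.3 CPM with hairpin 1 and 116 and 111 CPM with hairpin 2. All 4 knockdown libraries were far below the controls, and hairpin 1 left less than hairpin 2 (difference, hairpin 2 minus hairpin 1, log2 1.03 with an SE of 0.043, edgeR adjusted p = 7.3e-07). MYCN (chr2:15940564-15947007, plus strand) stood at 2251 and 2271 CPM in control, 1821 and 1828 with hairpin 1 and 1702 and 1816 with hairpin 2. It was a shared lower gene, with a fall of 1.26-fold over both hairpins (edgeR adjusted p = 9.5e-05). Its hairpin difference was -0.05 (95% interval -0.15 to 0.04). After a correction of each library for GC content and transcript length, described below, the change of MYCN was -0.14 (edgeR adjusted p = 0.009). Exons of BCAT1 overlap those of 3 unnamed genes and MYCN overlaps its antisense gene MYCNOS, and whether counting used strand is not given, so a part of these reads is uncertain.

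Most shared changes were small. The median fold over both hairpins was 1.44 upwards and 1.39 downwards. As a measure that neither hairpin can carry alone, the weaker response was taken, that is the smaller of the log2 fold changes with hairpin 1 and with hairpin 2. Its median was 0.39 for shared higher and -0.34 for shared lower genes. The weaker response exceeded 1.5-fold in 1198 higher and 855 lower genes, 2-fold in 394 and 186, and 4-fold in 70 and 20. In edgeR, 3498 shared higher and 3868 shared lower genes had an adjusted p under 0.05 over both hairpins against control, against a background of 23.6% of all tested genes called higher and 26.4% called lower. Because the rule used that contrast, nothing is read from those counts. The remaining 1177 members were not called.

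The division into higher and lower depends on scaling. With plain library totals in place of TMM, 8474 genes met the rule, of which 5096 (60.1%) were higher and 3378 (39.9%) lower, against 48.2% and 51.8% with TMM. TMM factors were 0.960 and 0.962 in control and 1.004 to 1.035 in knockdown, so totals raise every knockdown library relative to both controls. All 4114 shared higher genes therefore had to keep their side under that scaling, and 3378 of the 4429 shared lower genes kept theirs. The median log2 ratio of knockdown to control over all tested genes was 0.10 with totals and 0.02 with TMM, so changes of that size have no firm direction.

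The 15 higher genes with the largest weaker response, among those with a symbol, a mean of at least 5 CPM and an adjusted p under 0.05 over both hairpins, were led by the cystine transporter gene SLC7A11. It encodes the light chain of the exchanger that imports cystine against glutamate, and it is a known target of ATF4 and NRF2. SLC7A11 (chr4:138164097-138242349) stood at 25.3 and 26 CPM in control, 151 and 146 CPM with hairpin 1 and 170.3 and 163 CPM with hairpin 2. The 4 knockdown libraries lay close together and far above both controls, with a rise of 6.14-fold (log2 2.62, SE 0.045, edgeR adjusted p = 2.2e-08). SLC7A11 was slightly higher with hairpin 2, by 0.16 on the log2 scale (edgeR adjusted p = 0.014), but after the correction for GC content and length this difference was -0.03 (edgeR adjusted p = 0.46).

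POMK, a kinase that phosphorylates the mannose glycan of dystroglycan, stood at 2.3 and 2.0 CPM in control, 15.7 and 17 with hairpin 1 and 10.8 and 8.71 with hairpin 2. It rose 5.86-fold, more with hairpin 1. DYNLRB1, a light chain of the dynein motor, stood at 23.7 and 26 CPM in control against 83.9 and 109 with hairpin 1 and 88.6 and 88 with hairpin 2. Its knockdown libraries overlapped between the hairpins, and its rise was 3.71-fold. NCR3LG1, the ligand B7-H6 of the natural killer cell receptor NKp30, went from 5.47 and 5.21 CPM to 19.1 and 16.5 and to 16.4 and 16. LMLN, a zinc metallopeptidase, went from 2.8 and 2.46 CPM in control to 7.45 and 7.33 with hairpin 1 and 12.9 and 14.1 with hairpin 2. The LMLN rise was larger with hairpin 2, by 0.87 on the log2 scale (edgeR adjusted p = 0.00037). TBX20, a T-box factor of heart development, stood at 3.99 and 5.51 CPM in control, 13.5 and 13.1 with hairpin 1 and 18.2 and 17.3 with hairpin 2.

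Lower in this order came genes with a rise of 2.48-fold (VPS13A) to 2.68-fold (ZC3HAV1L) over both hairpins. VPS13A, a bridge protein that transfers lipids between organelles, stood at 21.6 and 22.2 CPM in control, 55 and 52.2 with hairpin 1 and 56.3 and 53.2 with hairpin 2, and its hairpin ranges overlapped. SLFN5, a Schlafen family gene, stood at 3.33 and 3.19 CPM, then 8.05 and 7.7 and 8.32 and 8.4. ZC3HAV1L, a relative of the zinc finger antiviral protein, stood at 3.23 and 3.24 CPM in control, 7.76 and 7.83 with hairpin 1 and 10.6 and 8.71 with hairpin 2. These genes had tight controls. AHCTF1P1, a pseudogene of the nucleoporin gene AHCTF1, went from 3.83 and 4.27 CPM to 11.5 and 9.77 and 9.96 and 10.3, and its reads can be shared with the parent gene.

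In 5 of the 15 the control libraries themselves were far apart, so the size of the change is loosely held. LCOR, a corepressor of nuclear receptors, stood at 14.2 and 1.78 CPM in control, 19.4 and 20.2 with hairpin 1 and 35 and 32.6 with hairpin 2. Its higher control library was close to the hairpin 1 libraries, and its edgeR adjusted p of 0.034 became 0.11 in DESeq2 and 0.055 to 0.075 without any single knockdown library. CHIC1 stood at 2.01 and 8.78 CPM in control against 14.7 and 15.8 and 22 and 22. ZBTB38, a zinc finger protein that binds methylated DNA, stood at 6.59 and 2.03 CPM against 11.1 and 13.7 and 12.1 and 11.3. WDR17, a WD repeat gene, stood at 4.44 and 7.92 CPM against 23.5 and 21.9 and 16.4 and 16.8. The read-through transcript CHKB-CPT1B stood at 9.36 and 4.49 CPM against 18.1 and 17.2 and 22.6 and 15.2, and its reads cannot be separated from CHKB and CPT1B. Over both hairpins their log2 changes were 1.77 (SE 0.43) for CHIC1, 1.69 (SE 0.56) for LCOR and 1.48 (SE 0.36) for ZBTB38. WDR17 changed by 1.65 (SE 0.20) and CHKB-CPT1B by 1.40 (SE 0.27). Against replicate 2 of the control alone, or replicate 1 alone, the log2 changes were 1.06 and 3.18 for CHIC1, 3.85 and 0.86 for LCOR, 2.57 and 0.87 for ZBTB38, and 2.02 and 0.96 for CHKB-CPT1B.

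The 15 shared lower genes with the largest weaker response, chosen in the same way, included genes of secreted and cell-surface proteins. CCL2, the chemokine that attracts monocytes (chr17:34255218-34257203), stood at 374 and 413 CPM in control, 81.2 and 76.9 CPM with hairpin 1 and 66.7 and 62.3 CPM with hairpin 2. All 4 knockdown libraries were far below both controls, and the fall was 5.51-fold (log2 -2.46, SE 0.049, edgeR adjusted p = 5.3e-08). IL32, an inflammatory cytokine, stood at 37.4 and 34.3 CPM, then 10.2 and 12.9 and 7.56 and 8.27. It fell 3.75-fold, more with hairpin 2. CD82, a tetraspanin known as a metastasis suppressor, stood at 25.5 and 24.9 CPM, then 8.51 and 8.57 and 7.75 and 6.91. FIBIN, a secreted factor named for fin bud initiation, stood at 83.6 and 88.5 CPM, then 34.9 and 32 and 28.2 and 29.3. DCHS1, a large cadherin of planar polarity, stood at 14.4 and 14.3 CPM, then 4.9 and 4.56 and 5.13 and 6.12. LRRC55, an auxiliary subunit of calcium-activated potassium channels, fell 4.32-fold, from 31.9 and 36.3 CPM to 8.36 and 8.78 and 7.43 and 7.14.

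Several others act on the cytoskeleton or cross-link proteins. TGM2, a transglutaminase that cross-links proteins, stood at 165 and 158 CPM in control, 27.2 and 26.1 with hairpin 1 and 33.8 and 32.6 with hairpin 2. It fell 5.43-fold (log2 -2.44, SE 0.039), and its hairpin groups did not overlap. CORO1C, a coronin that binds actin, stood at 277 and 282 CPM, then 99.8 and 99.4 and 89.2 and 88. BASP1, a lipid-anchored protein of nerve growth cones, stood at 182 and 178 CPM, then 43.6 and 39.7 and 66.6 and 67.1, with the deeper fall under hairpin 1 (difference 0.68, edgeR adjusted p = 1.6e-05). PDLIM1, an adaptor of actin stress fibres, stood at 9.68 and 10.2 CPM, then 3.56 and 2.56 and 3.05 and 3.85. CRIP1, a LIM domain protein, stood at 60.1 and 55.4 CPM, then 15.3 and 18.2 and 19.8 and 24.1. PALM3, a paralemmin, stood at 14.5 and 10.8 CPM, then 4.8 and 4.44 and 3.74 and 3.21.

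MSC, which encodes the repressor musculin, stood at 119 and 107 CPM in control, 36.7 and 37.4 with hairpin 1 and 36.2 and 38.4 with hairpin 2, so the hairpins gave almost the same level. RAB7B, a small GTPase of endosomes, stood at 102 and 93.7 CPM, then 23.6 and 26.2 and 33 and 35. MYEOV, a gene first found overexpressed in myeloma, stood at 37.7 and 35.8 CPM, then 13.6 and 11.6 and 13.6 and 13.9. The edgeR adjusted p of the 30 genes with the largest weaker response ran from 1.9e-08 for TGM2 to 0.034 for LCOR. Exons of SLC7A11, LMLN, VPS13A, TGM2, IL32, MSC, CD82, BASP1, CRIP1 and DCHS1 overlap other annotated genes, which leaves a part of their counts uncertain.

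**Figure D1:**
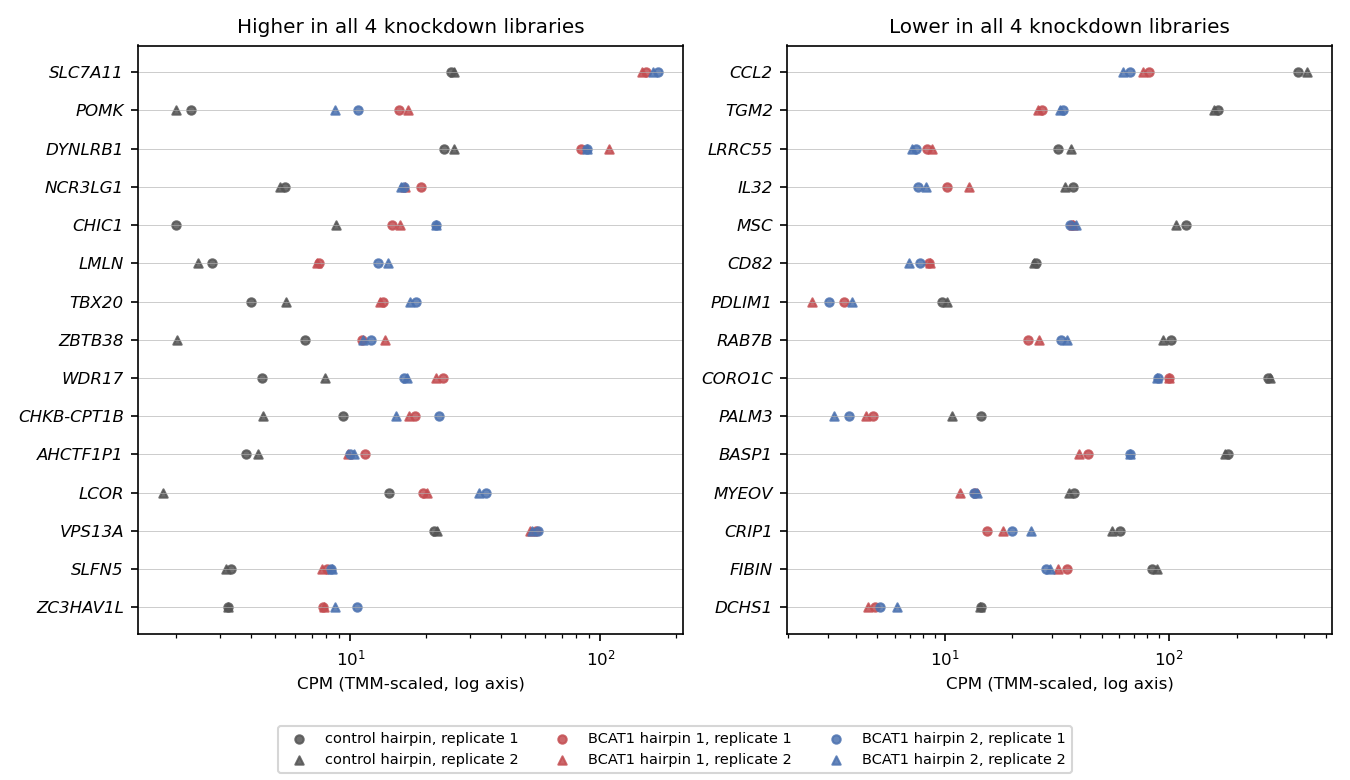
Level of the 15 higher (left) and 15 lower (right) genes with the largest weaker response in each of the 6 libraries, in TMM-scaled CPM on a log axis. Grey marks are control libraries, red hairpin 1 and blue hairpin 2, with a circle for replicate 1 and a triangle for replicate 2. SLC7A11 and CCL2 show tight groups far apart, while the control marks of LCOR, at 14.2 and 1.78 CPM, are spread wide.

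Whether a shared change was equally large with both hairpins was judged by the hairpin difference, whose size comes from the 4 knockdown libraries. Its error, interval and p-value use a spread estimated from all 6 libraries. Controls far apart can therefore widen the interval (SE of the difference 0.44 for CHIC1 and 0.58 for LCOR). Over all tested genes, edgeR called a difference between the hairpins in 46.2%. Among the shared genes the share was 41.6% (3550 genes), and among the other tested genes it was 50.04% (5100 genes). The difference was called matched where its whole 95% interval lay within 0.32 on the log2 scale in either direction, that is with the larger level exceeding the smaller by at most 25%, which held for 17.9% of all tested genes. Of the shared genes 2587 (30.3%) were matched, 1211 higher and 1376 lower, against 773 (7.59%) of the others. The median absolute hairpin difference was 0.22 in the shared genes and 0.49 in the others. The rule favours genes in which the hairpins lie on the same side of control, so these shares describe the set and are not a test. Of the matched shared genes, 452 also had a called difference, among them SLC7A11, SV2C and CORO1C. A match thus means a small difference and not equality. For 2858 shared genes the difference was neither called nor held within that band, so these are undecided at 2 libraries per group.

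Within the shared set, larger changes were found with either hairpin. The rule leaves out genes that cleared the controls with a single hairpin only. Whether changes followed the depth of the BCAT1 reduction was therefore not tested. Among shared higher genes with a called difference, 870 were larger with hairpin 1 and 782 with hairpin 2. Among shared lower genes these counts were 1005 and 893. The median ratio of the size of the log2 change with hairpin 2 to that with hairpin 1 was 0.98. BCAT1 itself, with log2 changes of -3.07 and -2.04, differed far more.

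Matched genes with the largest shared rise were SLC7A11, VPS13A, SMCR8, EVI5L and SV2C. SMCR8, part of the C9orf72 complex that acts in autophagy, stood at 5.34 and 5.05 CPM in control, 11.8 and 14.1 with hairpin 1 and 12.6 and 12.5 with hairpin 2. EVI5L, a regulator of Rab GTPases, stood at 5.87 and 5.03 CPM, then 12.2 and 13.9 and 13.8 and 13.2. SV2C, a synaptic vesicle glycoprotein, stood at 62 and 59.2 CPM, then 144 and 142 and 128 and 129.7. Each rose over 2-fold, and the hairpin difference was -0.05 (95% interval -0.31 to 0.21) for SMCR8, 0.05 (-0.21 to 0.32) for EVI5L and -0.15 (-0.24 to -0.06) for SV2C. The VPS13A difference was 0.03 (-0.10 to 0.17). Matched falls were largest for MSC, CORO1C, UBALD2, EFNA1 and MDK. UBALD2, a gene with a UBA-like domain, stood at 34.3 and 33.1 CPM, then 14.2 and 13.6 and 13.8 and 14.6. EFNA1, an ephrin ligand, stood at 28.2 and 25.8 CPM, then 11.1 and 11.8 and 11.4 and 12.9. MDK, the heparin-binding growth factor midkine, known to be abundant in neuroblastoma, stood at 151 and 144 CPM, then 63.5 and 62.4 and 71.7 and 64.7. The MSC difference was 0.01 (-0.14 to 0.15), that of UBALD2 0.03 (-0.15 to 0.22) and that of MDK 0.12 (-0.02 to 0.25). Exons of SMCR8 and SV2C overlap other annotated genes.

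At the other end stood shared genes whose change was far larger with a single hairpin than with the other. HTR3B, a subunit of the serotonin-gated channel, stood at 1.93 and 1.76 CPM in control, 18.6 and 16.7 with hairpin 1 and 3.22 and 3.06 with hairpin 2. KCNAB1, a potassium channel beta subunit, stood at 5.18 and 5.05 CPM, then 15.5 and 17.2 and 5.38 and 6.04, so that hairpin 2 barely cleared the controls (log2 0.16, edgeR adjusted p = 0.31). UNC80, a subunit of the sodium leak channel, stood at 2.46 and 3.27 CPM, then 10.4 and 11.5 and 4.43 and 3.29. The UNC80 change with hairpin 2 alone was not called (edgeR adjusted p = 0.10). These 3 had larger rises with hairpin 1. With hairpin 2 the larger rises were those of DGKI, a diacylglycerol kinase, FCHO2, a factor of clathrin-mediated endocytosis, and RICTOR, the defining subunit of mTORC2. DGKI stood at 3.57 and 3.46 CPM in control, 3.69 and 3.85 with hairpin 1 and 11.3 and 11.2 with hairpin 2. FCHO2 stood at 3.23 and 3.3 CPM, then 4.36 and 3.36 and 10.6 and 11.6. RICTOR stood at 3.83 and 10.9 CPM, then 11.1 and 12.4 and 27.7 and 27.9, with controls far apart and hairpin 1 next to the upper control. Its log2 change over both hairpins was 1.30 (SE 0.32), or 2.23 without replicate 2 and 0.73 without replicate 1 of the control. For DGKI (edgeR adjusted p = 0.54), FCHO2 (edgeR adjusted p = 0.23) and RICTOR (edgeR adjusted p = 0.16) the change with hairpin 1 alone was not called.

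Falls were as uneven. SFT2D3, a gene of vesicle transport by homology, stood at 8.38 and 8.48 CPM in control, 1.11 and 0.801 with hairpin 1 and 7.13 and 6.99 with hairpin 2. TMEM35A, a chaperone of nicotinic receptors, stood at 13.6 and 12.9 CPM, then 1.88 and 1.33 and 9.56 and 10.9. TAGLN, the actin-binding protein transgelin, stood at 39.3 and 38.8 CPM, then 5.83 and 5.21 and 29.8 and 31.2. The fall with hairpin 2 alone was called for TAGLN (edgeR adjusted p = 0.0045) and not for SFT2D3 (0.17, edgeR adjusted p) or TMEM35A (0.063, edgeR adjusted p). With hairpin 2 the larger falls were those of TNFRSF9, the costimulatory receptor 4-1BB, FAM162A, a mitochondrial protein induced by hypoxia, and CHGA, chromogranin A of neuroendocrine granules. TNFRSF9 stood at 15.7 and 17.2 CPM in control, 12.2 and 10.3 with hairpin 1 and 3.39 and 3.11 with hairpin 2. FAM162A stood at 37.4 and 41.4 CPM, then 36.2 and 34.2 and 11.6 and 12.1, and its fall with hairpin 1 alone was not called (edgeR adjusted p = 0.12). CHGA stood at 184 and 207 CPM, then 150.4 and 170.2 and 52.1 and 60.4, with hairpin 1 just under the controls. Exons of KCNAB1, RICTOR, SFT2D3, TAGLN and FAM162A overlap other annotated genes. A place in the shared set thus covers changes from nearly equal under both hairpins to nearly absent under either of them.

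**Figure D2:**
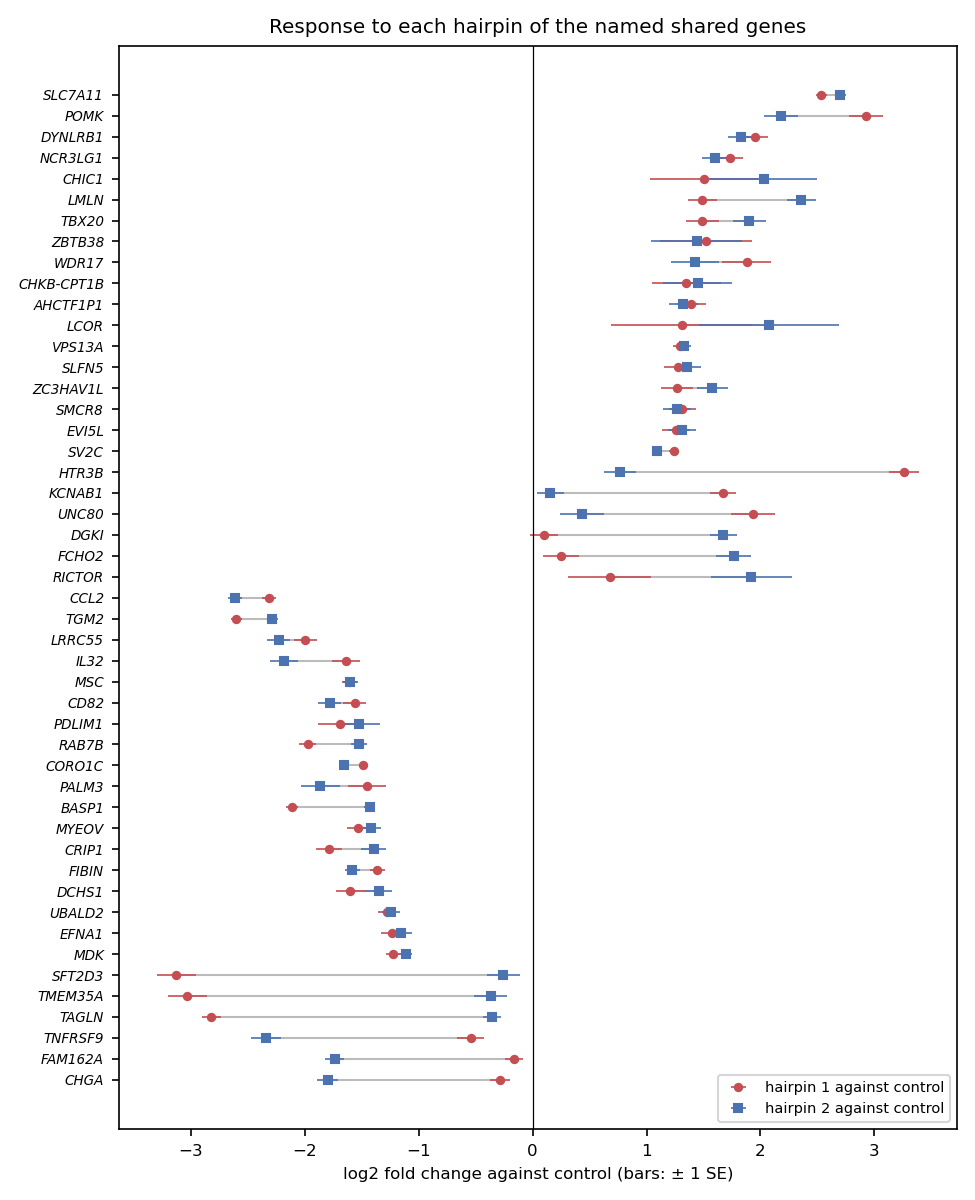
Log2 fold change against control with hairpin 1 (red circles) and hairpin 2 (blue squares) for the shared genes named by size, by match and by hairpin difference, with bars of 1 SE. MSC has both marks at about -1.6, whereas HTR3B has 3.26 with hairpin 1 and 0.77 with hairpin 2, and the bars of LCOR and CHIC1 are wide.

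The rule has no minimum size, so its edge holds genes with a gap near 0 between the nearest control and knockdown libraries. Just inside were GLB1L, a relative of beta-galactosidase (9.36 and 8.94 CPM in control, 6.5 and 5.85 with hairpin 1, 8.94 and 8.38 with hairpin 2), and RWDD2A (13.4 and 12.6, 10.9 and 12.1, 11.3 and 12.6). Just outside were OSTC, an oligosaccharyltransferase subunit (119 and 122.96, 72 and 62.7, 112 and 119), and PI4KA, a phosphatidylinositol kinase (111 and 105, 111 and 117, 129 and 124). Where the nearest control and knockdown libraries had to differ by 25% of the smaller, 1595 higher and 1411 lower genes were left.

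Gene lists of textbook pathways and of gene families were then counted in the shared set. Of the measured genes of each list, those shared higher and shared lower are given beside 22% and 23.6% of all tested genes, and medians are of the log2 change over both hairpins beside a median of -0.01 over all tested genes. For each list the members with the largest weaker response are named. The counts describe the lists and are not tests.

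Branched-chain amino acid enzymes, the pathway of BCAT1, showed no common direction. Of 25 measured, 5 were shared higher and 6 shared lower (20% and 24%), close to the background. After BCAT1, the largest weaker responses were those of ACADSB, the short branched-chain acyl-CoA dehydrogenase of isoleucine breakdown, MMUT, methylmalonyl-CoA mutase, and BCKDK, the kinase that inhibits the branched-chain keto acid dehydrogenase. ACADSB stood at 14.4 and 14.3 CPM in control, 27.5 and 23.1 with hairpin 1 and 21.4 and 21.6 with hairpin 2, a rise of 1.63-fold. MMUT rose 1.5-fold, from 36.8 and 35.7 CPM to 54.3 and 50.7 and 57 and 56.4. BCKDK fell 1.51-fold, from 68.7 and 68 CPM to 48.7 and 48.3 and 41.4 and 43.3. Scaling turned the balance of this list, with 9 higher and 5 lower under library totals.

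The response to amino acid starvation through ATF4 had 40 measured genes, of which 20 (50%) were shared higher and 2 (5%) shared lower, with a median of 0.35. The median was 0.62 with hairpin 1 and 0.10 with hairpin 2, and 6 members were matched. After SLC7A11 the leading members were ALDH1L2, a mitochondrial folate enzyme, ATF3, a stress-induced transcription factor, and CEBPB, a bZIP factor that partners with ATF4. ALDH1L2 stood at 49 and 52.8 CPM in control, 118 and 111 with hairpin 1 and 104 and 99 with hairpin 2. ATF3 stood at 12.7 and 13.1 CPM, then 21.4 and 24.7 and 19 and 22.5. CEBPB moved the other way and fell 1.58-fold, from 131 and 112 CPM to 79.996 and 83.2 and 78.4 and 66.6. Exons of ALDH1L2 and CEBPB overlap other genes.

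Aminoacyl-tRNA synthetases, which charge transfer RNAs and of which many are ATF4 targets, had 8 of 20 shared higher (40%) and 3 shared lower (15%). EPRS1, for glutamate and proline, stood at 237 and 243 CPM in control, 424 and 425 with hairpin 1 and 376 and 363 with hairpin 2. LARS1, for leucine, a substrate of BCAT1, stood at 248 and 252 CPM, then 368 and 386 and 356 and 339. WARS1, for tryptophan, stood at 159 and 161 CPM, then 243 and 262 and 216 and 225. IARS1, for isoleucine, stood at 398 and 390.2 CPM, then 635 and 605 and 509 and 497. The rises were 1.65-fold for EPRS1, 1.48-fold for WARS1, 1.42-fold for IARS1 and 1.45-fold for LARS1. After the correction for GC content and length, their log2 changes were 0.46, 0.63, 0.27 and 0.26 in that order. With hairpin 2 alone the corrected changes were 0.31, 0.52, 0.07 and 0.14, so little of the IARS1 rise was left under hairpin 2. All 4 means were higher with hairpin 1, and the difference was called for EPRS1, WARS1 and IARS1 but not for LARS1 (edgeR adjusted p = 0.053). LARS1 and WARS1 overlap other genes.

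Of 32 genes of cystine import, glutathione and NRF2, 12 were shared higher (37.5%) and 8 shared lower (25%), so the list was divided. CHAC1, a glutathione-degrading enzyme and ATF4 target, stood at 9.89 and 7.0 CPM in control, 25.2 and 26.5 with hairpin 1 and 11.1 and 12.8 with hairpin 2. It rose 2.08-fold over both hairpins, with hairpin 2 close above the upper control. GPX4, the peroxidase that uses glutathione to reduce lipid peroxides, fell 1.58-fold, from 345 and 325 CPM to 204 and 197 and 226 and 223. TXN, thioredoxin, fell 1.53-fold, from 172 and 173 CPM to 109 and 106 and 118 and 119.

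The letters of the amino acid response element, TGATGCAA, were searched on both strands in the 250 bases before the RefSeq start (GRCh38.p14), which could be matched for 12088 of the tested symbols. They were found in 0.45% of 2887 shared higher promoters, 0.234% of 2994 shared lower promoters and 0.397% of all tested promoters. Among the named genes 3 promoters held them, and these are shown because BCAT1 is the targeted gene and the others are list members that rose. Capitals mark the match, and each run is 5′ to 3′ on the gene's strand.
BCAT1, chr12:24949132-24949159, minus strand: gtcttcctgcTGATGCAAtccgctaggt
IARS1, chr9:92293698-92293720, minus strand: tttcagcgcgTTGCATCAcctcc
CHAC1, chr15:40953252-40953279, plus strand: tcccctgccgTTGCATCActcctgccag
The IARS1 and CHAC1 matches are in the reverse orientation. They begin 13 bases and 209 bases before the RefSeq start, against 48 bases for BCAT1. The gene coordinates given elsewhere come from a different annotation, GENCODE, whose intervals for these genes begin further upstream. By those intervals all 3 matches lie inside the gene, so they are upstream of the RefSeq start only. A match is a description of the letters and not evidence of binding.

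Of 24 NF-kB inflammatory targets 12 (50%) were shared lower and 0 shared higher, with a median of -0.73. That median differed by hairpin, at -0.20 with hairpin 1 and -1.22 with hairpin 2, and 0 members were matched. CCL2 and IL32 led, followed by IL1B and CD83. IL1B, the cytokine interleukin 1 beta, stood at 15 and 13 CPM in control, 5.54 and 5.95 with hairpin 1 and 4.21 and 4.03 with hairpin 2, a fall of 2.87-fold. CD83, a surface protein of activated immune cells, fell 2.74-fold, from 10.6 and 11 CPM to 3.74 and 2.71 and 5.0 and 4.55. Of the leukocyte markers PTPRC and CD3E were at or near 0 in all libraries, but CD68, a lysosomal protein abundant in macrophages, was a shared lower gene, at 37.3 and 34 CPM in control, 28.8 and 32.9 with hairpin 1 and 17.1 and 14.1 with hairpin 2. The 6 leukocyte markers summed to 37.9 to 42.6 CPM in control, 31.9 to 37.2 with hairpin 1 and 17.1 to 20.4 with hairpin 2. Most of that sum was CD68 alone, and the part of these markers in this list was not tested.

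The kappa-B letters GGNNTTTCC, searched on both strands in the same windows, were found in 5.98% of shared lower promoters, 5.82% of shared higher promoters and 5.77% of all tested ones. Among the named genes 7 lower and 3 higher promoters held them, and the windows of LRRC55 and IL32, which had the largest falls of these, are shown with the match in capitals. The LRRC55 match is in the reverse orientation. The shown matches of IL32 and LRRC55 lie before the RefSeq start but inside the GENCODE interval of the gene.
IL32, chr16:3065295-3065323, plus strand: ctgtactcagGGAGTTTCCccagccagct
LRRC55, chr11:57181859-57181887, plus strand: gaggctcctgGGAAAGTCCctagccatga
The E-box CACGTG, which MYC proteins bind, was in 9.6% of shared higher, 9.02% of shared lower and 8.83% of all tested promoters. For the antioxidant response core TGACNNNGC the shares were 11.74%, 12.09% and 12.03%. These shares all lay close to those of all tested promoters.

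Interferon-stimulated genes had 10 of 28 shared lower (35.7%) and 1 shared higher (3.57%), led by antigen presentation. HLA-E stood at 18.1 and 17.2 CPM in control, 9.05 and 9.43 with hairpin 1 and 8.3 and 12.2 with hairpin 2. HLA-C stood at 15.2 and 16.8 CPM, then 5.6 and 6.35 and 5.35 and 13.4, with replicate 2 of hairpin 2 near the controls. Its edgeR adjusted p of 0.011 became 0.052 without replicate 2 of the control. B2M, the light chain of class I molecules, fell 1.69-fold, from 296 and 308 CPM to 159.9 and 157 and 191 and 211. HLA genes are similar in sequence, so reads can be split among them.

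Of 38 extracellular matrix and proteolysis genes 20 (52.6%) were shared lower and 4 (10.5%) shared higher, with a median of -0.32. After TGM2 and CD82 came PLAU, the urokinase plasminogen activator, and LOXL1, a lysyl oxidase that cross-links elastin. PLAU stood at 45.1 and 47.5 CPM in control, 7.56 and 8.41 with hairpin 1 and 19.2 and 20.4 with hairpin 2, with the deeper fall under hairpin 1 (difference 1.31, edgeR adjusted p = 7.4e-06). LOXL1 fell 2.01-fold, from 344 and 316 CPM to 149 and 147 and 176 and 187. The summed fibroblast markers given above were lower too, though not every marker with hairpin 2, and their part in this list was not tested. PLAU and LOXL1 overlap other genes.

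Adrenergic core regulators, the transcription factors that define this neuroblastoma state, were divided, with 7 of 17 shared lower and 5 shared higher. PHOX2A stood at 572 and 525 CPM in control, 310.1 and 338 with hairpin 1 and 339 and 337 with hairpin 2, a fall of 1.66-fold that was matched between hairpins. KLF7 rose 1.5-fold, from 96.8 and 105 CPM to 152 and 162 and 147 and 142. Under library totals the balance turned, with 7 higher and 6 lower.

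Genes of the neuronal cytoskeleton and growth cone were divided too, with 7 of 33 shared higher and 9 shared lower. BASP1 fell, as given above. KIF5C, a neuronal kinesin, stood at 3.91 and 4.54 CPM in control, 8.51 and 8.87 with hairpin 1 and 9.27 and 9.79 with hairpin 2, a rise of 2.15-fold. ANK2 and ANK3, ankyrins that anchor membrane proteins to spectrin, rose 2.14-fold and 1.8-fold. ANK3 went from 131 and 135 CPM to 307 and 309.6 and 188 and 183, and ANK2 from 66.2 and 66.5 CPM to 155 and 159 and 130.3 and 126. The rises of both were larger with hairpin 1. Under library totals the list counted 10 higher and 9 lower.

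MYC and MYCN target genes had 25 of 50 shared lower (50%) and 8 shared higher (16%), with a median of -0.16, and 24 members were matched. The 3 members with the largest weaker response nevertheless rose, while the next in that order fell. MDM2, the ubiquitin ligase of p53, stood at 29.3 and 32 CPM in control, 54.3 and 52.9 with hairpin 1 and 52.6 and 50.9 with hairpin 2. SET, an inhibitor of the phosphatase PP2A, rose 1.58-fold, from 491 and 505 CPM to 805 and 795 and 776 and 766. UTP20, a ribosome assembly factor, rose 1.52-fold, from 73.6 and 76.6 CPM to 111 and 116 and 117 and 114. All 3 rises were matched between hairpins. MDM2 overlaps CPM, the gene of carboxypeptidase M.

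Among the lists with at least 5 measured genes, cytosolic ribosomal proteins had the highest share in a single direction. Of 84 cytosolic ribosomal protein genes measured, 79 (94.0%) were shared lower and 1 shared higher, with a median of -0.45, and 56 were matched. The median was -0.43 with hairpin 1 and -0.46 with hairpin 2. RPL36 stood at 499 and 431 CPM in control, 293 and 278 with hairpin 1 and 277 and 284 with hairpin 2. RPS10 fell 1.68-fold, from 849 and 874 CPM to 499 and 466 and 539.8 and 550.3. Ribosomal protein genes have many processed pseudogenes, so their reads can be split. Mitochondrial ribosomal proteins had 44 of 78 shared lower (56.4%) and 5 shared higher. MRPS6 fell 1.85-fold, from 86.5 and 90.8 CPM to 43.2 and 42.4 and 49.7 and 57.6, and MRPL23 fell 1.81-fold, from 60.5 and 59.3 CPM to 30.9 and 32.6 and 32 and 37.

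Lists of other short transcripts leaned downwards, with a median length of 1366 bases for complex I genes and 1478.5 bases for small nuclear ribonucleoproteins. After the correction for GC content and length, 28 complex I, 24 proteasome and 20 small nuclear ribonucleoprotein genes were shared lower. Nuclear genes of respiratory complex I had 28 of 37 shared lower (75.7%) and 1 shared higher. NDUFA13 fell 1.67-fold, from 143 and 132 CPM to 79.996 and 71.1 and 92.4 and 87.5, and NDUFS8 fell 1.52-fold, from 157 and 155 CPM to 110.1 and 107 and 91.7 and 102. Proteasome subunits had 26 of 37 shared lower (70.3%) and 0 shared higher. PSMB10, a catalytic subunit of the immunoproteasome, fell 1.99-fold, from 20.9 and 19.1 CPM to 9.28 and 8.91 and 11.8 and 10.3. PSMD9, an assembly chaperone, fell 1.56-fold, more with hairpin 1 (78 and 74.7 CPM in control, then 40.9 and 43.3 and 57.1 and 56.3). Small nuclear ribonucleoproteins of the spliceosome had 22 of 28 shared lower (78.6%). SNRPD2, a core Sm protein, fell 1.62-fold, from 141 and 139 CPM to 80.6 and 76.5 and 93.9 and 94.6. The single shared higher member was LSM11 of the U7 particle, which rose 1.52-fold, from 10.7 and 10.2 CPM to 16.6 and 16 and 16 and 14.9. Exons of all these housekeeping genes named except LSM11 overlap other genes.

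Endoplasmic reticulum folding genes had 17 of 31 shared lower (54.8%) and 3 shared higher, with a median of -0.31. PDIA4, a disulfide isomerase, stood at 824 and 830.1 CPM in control, 489.9 and 502 with hairpin 1 and 497 and 497 with hairpin 2, and MANF, a secreted stress protein, fell from 123.48 and 127 CPM to 69.9 and 66.3 and 67.9 and 66. The hairpin difference was 0.002 for PDIA4 and -0.02 for MANF, and both were matched. EIF2AK3, the stress sensor PERK, rose 2.32-fold, from 14.2 and 15 CPM to 37.5 and 37.2 and 31.2 and 30.2. ERN1, the sensor IRE1, rose 2.17-fold, from 6.51 and 5.81 CPM to 12.9 and 12.2 and 14.2 and 14.3.

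Metabolic lists also leaned downwards. Cholesterol synthesis had 14 of 25 shared lower (56%) and 3 shared higher (12%). FDPS, farnesyl diphosphate synthase, fell 1.79-fold, from 324 and 305 CPM to 171 and 162 and 187 and 186. EBP, a sterol isomerase, fell 1.78-fold, from 87.5 and 83.2 CPM to 50.8 and 51 and 46 and 44.8. TM7SF2, a sterol reductase, fell 1.86-fold, from 13.7 and 13 CPM to 6.03 and 6.01 and 8.27 and 8.74. Glycolysis and hypoxia genes had 15 of 30 shared lower (50%) and 7 shared higher (23.3%), with 14 matched. PKM, pyruvate kinase, stood at 3142 and 3087 CPM in control, 2161 and 2093 with hairpin 1 and 2041 and 2173 with hairpin 2. PFKP, a phosphofructokinase, fell 1.63-fold, from 720.2 and 710.3 CPM to 399 and 392 and 486 and 494, and TPI1, triosephosphate isomerase, fell 1.55-fold, from 1089 and 1074 CPM to 720.02 and 776 and 635 and 666. EIF2AK3, FDPS, TM7SF2, PFKP and TPI1 overlap other genes.

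Several lists of long genes leaned upwards, with a median transcript length of 5258 bases for DNA damage genes and 6813 bases for histone lysine methyltransferases and demethylases. DNA damage signalling and repair had 16 of 31 shared higher (51.6%) and 2 shared lower. ATM, the kinase that responds to double-strand breaks, stood at 55.6 and 63 CPM in control, 118 and 119 with hairpin 1 and 119.5 and 117 with hairpin 2. RAD50, of the MRN complex, rose 1.92-fold, from 58.7 and 59.2 CPM to 120.02 and 115 and 110.3 and 109, and WRN, the Werner helicase, rose 1.8-fold, from 18.4 and 18.5 CPM to 33.3 and 31.9 and 34.5 and 32.8. The list turned after correction for GC content and length, to 5 higher and 9 lower. Histone lysine methyltransferases and demethylases had 23 of 39 shared higher (59.0%) and 3 shared lower, or 16 and 6 after correction. KMT2E stood at 44.2 and 47.1 CPM in control, 82.9 and 86.4 with hairpin 1 and 89.8 and 89.8 with hairpin 2. KMT2D, a methyltransferase of enhancers, rose 1.8-fold, from 64.1 and 63.3 CPM to 109.99 and 118 and 118 and 114, and the demethylase KDM7A rose 2.06-fold, from 12 and 14.2 CPM to 25 and 23.2 and 30.7 and 29.5.

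Zinc finger genes named ZNF, a large family of mostly repressor proteins, had 204 of 496 shared higher (41.1%) and 30 shared lower (6.05%), or 129 and 41 after correction. Of these, 42 were matched, and the median was 0.15 with hairpin 1 and 0.45 with hairpin 2. ZNF426 stood at 5.34 and 5.78 CPM in control, 11.1 and 11.7 with hairpin 1 and 15.7 and 14.5 with hairpin 2, and ZNF724 at 3.86 and 3.62 CPM, then 11.7 and 10.05 and 7.31 and 7.84. Protocadherins, adhesion proteins of neurons, had 18 of 59 shared higher (30.5%) and 3 shared lower. PCDHA11 stood at 9.55 and 17.2 CPM in control, 32.9 and 33.4 with hairpin 1 and 18 and 25.2 with hairpin 2, and PCDHA12 at 1.96 and 4.16 CPM, then 5.73 and 6.13 and 6.76 and 5.52. The log2 change of PCDHA12 was 0.98 (SE 0.26), or 1.62 without replicate 2 and 0.53 without replicate 1 of the control. Clustered protocadherins share exons, so these reads cannot be assigned to a single gene. Kinesins had 12 of 35 shared higher (34.3%) and 4 shared lower, or 8 and 7 after correction. KIF21A, a kinesin of axons, rose 2.04-fold, from 156 and 172 CPM to 320.2 and 299.99 and 363 and 352. ATM, RAD50, WRN, KMT2E, KMT2D and ZNF724 overlap other genes.

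**Figure D3:**
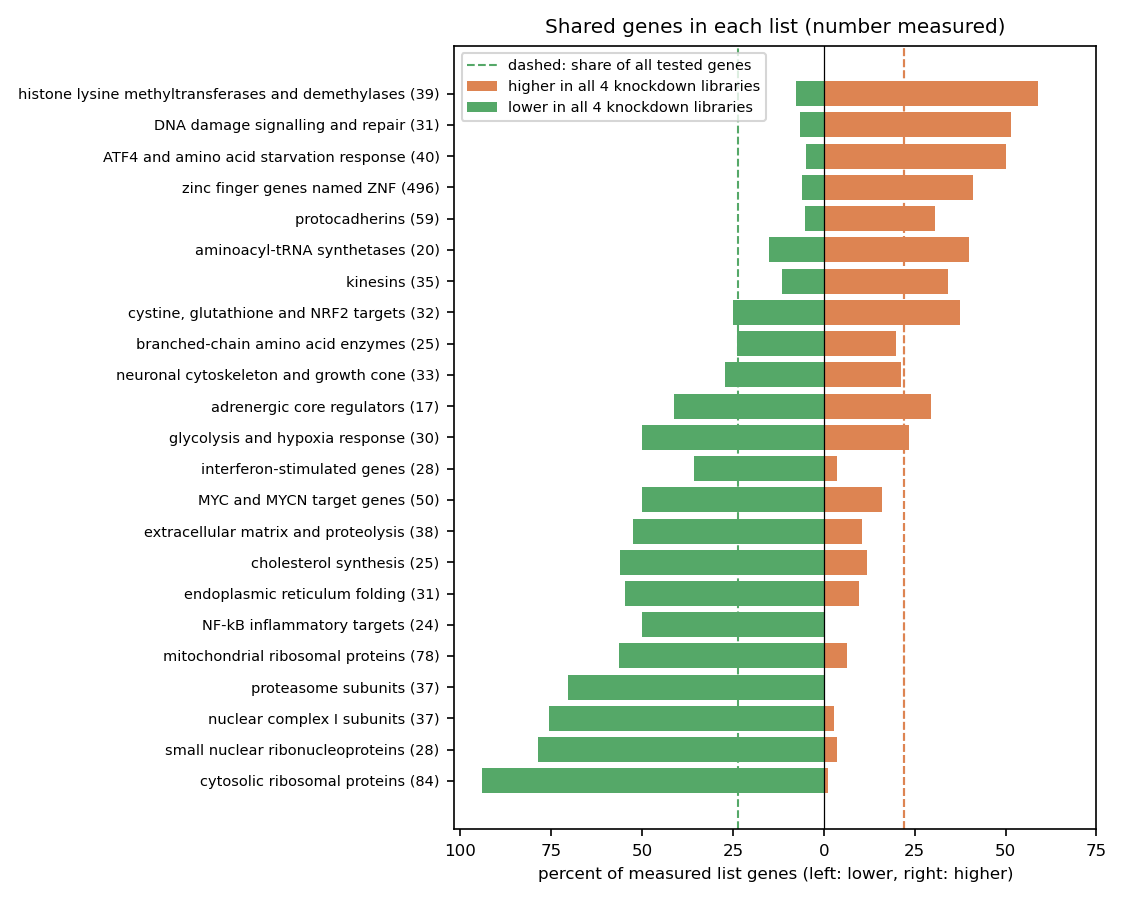
Percent of the measured genes of each list that were shared higher (orange, to the right) or shared lower (green, to the left), with the number measured in parentheses and dashed lines at the shares of all tested genes, 22% and 23.6%. Cytosolic ribosomal proteins reach 94.0% lower, while histone lysine methyltransferases and demethylases reach 59.0% higher.

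Direction in the shared set followed the composition and length of transcripts. The median GC content of the longest annotated transcript was 42.8% in 3319 shared higher protein-coding genes and 55.5% in 3592 shared lower ones, against 48.8% in all 13907 with a value. Median transcript length was 5243 bases in higher, 2548 bases in lower and 3685 bases in all of these genes. By quartile of GC content, from lowest to highest, the share of tested genes that were shared higher was 44.0%, 30.1%, 14.5% and 6.88%, and the share that were shared lower was 8.74%, 17.5%, 32.6% and 44.5%. By quartile of length the shared higher genes made up 6.76%, 15.4%, 28.5% and 44.9%, and the shared lower genes 47.0%, 27.9%, 18.0% and 10.4%. On chromosome 4, 32.1% of tested genes were shared higher and 14.8% shared lower. On chromosome 22 these shares were 11.4% and 33.9%. Membership as such rose with level, from 25.6% in the lowest quartile of mean CPM to 59.3% in the highest, and was 49.7% for protein-coding against 28.5% for long non-coding genes.

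After each library was corrected for GC content and length, 7033 genes met the rule, 2872 higher (40.8%) and 4161 lower (59.2%). Of the 3949 shared higher genes with a corrected value, 2345 (59.4%) stayed higher and 128 became lower, and of 4105 shared lower genes, 3041 (74.1%) stayed lower and 22 became higher. The leading genes kept their direction, with a corrected log2 change of 2.12 for SLC7A11, -2.50 for CCL2, -2.44 for TGM2 and -1.30 for MSC. Of 113 named genes with a corrected value, 113 kept the direction of the change over both hairpins. The shared direction itself was lost for 5 of them, whose hairpins then had opposite signs. With hairpin 1 and hairpin 2 the corrected log2 changes were -0.34 and 1.09 for DGKI, 1.49 and -0.12 for KCNAB1, 1.56 and -0.004 for UNC80, 0.77 and -0.05 for ANK3, and -0.46 and 0.01 for GLB1L. The size of the log2 change was smaller by over 1.5 times in 37 of them and larger in 1, RWDD2A. Among the smaller were VPS13A (1.31 before and 0.76 after), ATM (1.00 and 0.48), MDM2 (0.78 and 0.30) and UTP20 (0.61 and 0.18). EPRS1, LARS1, IARS1, ACADSB, KLF7, GPX4 and CEBPB were among them too. With hairpin 2 alone the corrected change was 0.07 for IARS1, 0.14 for ACADSB and 0.08 for KLF7. Among the lists, 75 cytosolic ribosomal proteins, 12 NF-kB targets and 23 extracellular matrix genes were shared lower after correction, and 22 ATF4 genes shared higher. Whether this trend arose in the cells or in library preparation was not tested.

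**Figure D4:**
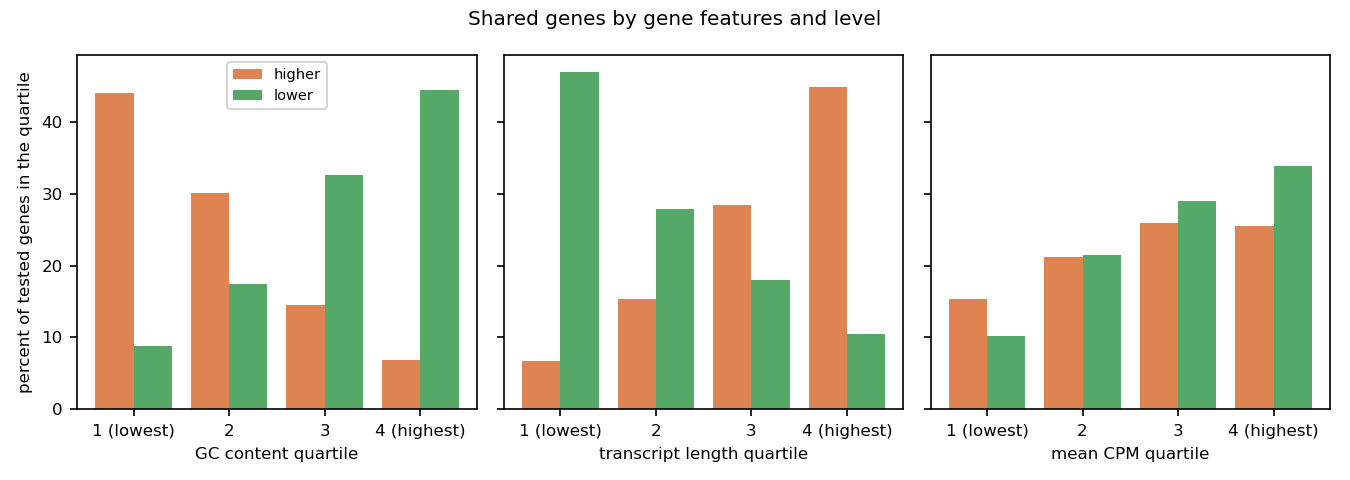
Percent of tested genes that were shared higher (orange) or shared lower (green) in quartiles of transcript GC content and transcript length (protein-coding genes) and of mean CPM (all tested genes). Shared higher genes go from 44.0% in the lowest GC quartile to 6.88% in the highest, and shared lower genes the reverse way from 8.74% to 44.5%.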

How the data were processed

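Total RNA was extracted with TRIzol and made into TruSeq RNA libraries, per the labels' protocols. Per the submitters' processing notes, reads were handled with HISAT2 2.2.0 and StringTie on hg38. Annotation release, counting options and strand setting were not given in the sources used here. Whole-number counts per Ensembl gene were deposited by the authors, 64252 rows and 6 columns, each matched to a label and all used. The count model was edgeR 4.0.16 in R 4.3.3 (filterByExpr with a minimum count of 10, TMM, quasi-likelihood, a term per group, 3 residual degrees of freedom, two-sided, Benjamini-Hochberg over 18734 genes, threshold 0.05). The common biological coefficient of variation was 8.66%. Each standard error is the log2 change over the root of F. Replicates differed beyond sampling noise (chi-square per gene 5.73 to 8.23, where noise alone gives about 1), so none was a copy. Depth was 32333416 to 39321388 counts per library, and intervals cover the spread between libraries.

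Symbols came from a table holding 56105 of the IDs, and coordinates, overlaps, GC content and length from GENCODE 29 on hg38 (longest transcript, 17459 tested genes with a value). The GC and length correction fitted a spline with 5 degrees of freedom for each, per library, as an offset. Promoters came from RefSeq. The members, the gene lists and the tests were chosen with earlier results of these data known. Genes were named by the weaker response (15 each way), by hairpin difference (3 in each of 4 classes), by match (5 each way), by list (up to 4 each) and at the edge of the rule (2 on each side), with BCAT1 and MYCN always. A few genes under this rule are not reported here. Alternatives were library totals, RLE factors, other count filters, DESeq2 1.42.0, limma 3.58.1, a replicate term, the GC and length correction, a gap of 25% and leaving out each library. The pipeline was tested on simulated data.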

Additional observations from a re-analysis of the deposited data

Results flagged for a closer look

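Of the 113 genes that the naming rules chose, 60 had a hairpin difference with an edgeR adjusted p under 0.05, where 46.2% of all tested genes had one. The rule by hairpin difference (3 in each of 4 classes) took only genes with such a call, so nothing is read from the count of 60. Values in parentheses are log2 differences, hairpin 2 minus hairpin 1, from the 4 knockdown libraries. Shared rises that were larger with hairpin 1 were those of HTR3B (-2.49), KCNAB1 (-1.52), UNC80 (-1.5), CHAC1 (-1.11), POMK (-0.747), ANK3 (-0.732) and ZNF724 (-0.52). Smaller differences of that kind were those of IARS1 (-0.301), ANK2 (-0.288), EIF2AK3 (-0.283), EPRS1 (-0.201), WARS1 (-0.198), ALDH1L2 (-0.18) and SV2C (-0.149). Shared rises that were larger with hairpin 2 were those of DGKI (1.57), FCHO2 (1.52), RICTOR (1.24), LMLN (0.869), TBX20 (0.414), ZNF426 (0.413), KDM7A (0.318), KIF21A (0.205) and SLC7A11 (0.164). Shared falls that were deeper with hairpin 1 were those of SFT2D3 (2.87), TMEM35A (2.66), TAGLN (2.46), PLAU (1.31), BCAT1 (1.03), BASP1 (0.681) and CD83 (0.56). Next in size were the differences of TM7SF2 (0.498), GLB1L (0.486), RAB7B (0.454), PSMD9 (0.429), CRIP1 (0.39), B2M (0.342), MRPS6 (0.324) and TGM2 (0.316). The smallest of that kind were those of PFKP (0.311), LOXL1 (0.299), SNRPD2 (0.263), NDUFA13 (0.251), RPS10 (0.175), FDPS (0.165), GPX4 (0.163) and TXN (0.142). Shared falls that were deeper with hairpin 2 were those of TNFRSF9 (-1.79), FAM162A (-1.58), CHGA (-1.51), IL32 (-0.542), IL1B (-0.477) and CCL2 (-0.294). The remaining deeper falls with hairpin 2 were those of FIBIN (-0.219), TPI1 (-0.201), BCKDK (-0.196), CORO1C (-0.169), NDUFS8 (-0.166) and EBP (-0.165). Outside the shared set, the genes just past its edge had differences of 0.78 (OSTC) and 0.155 (PI4KA). After the correction for GC content and length, 55 of the 60 differences kept their direction and call, 4 kept their direction without a call, and that of SLC7A11 turned to -0.03 (edgeR adjusted p = 0.46).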

How the results depend on the processing

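The count of shared genes, 8543, was within 1.5 times of itself under library totals (8474), RLE factors (8525), GC content and length correction (7033), all rows with a count (9788) and a CPM minimum (7717), and fell to 3006 when the nearest libraries had to differ by 25% of the smaller. Leaving out each library in turn gave 9250 to 10865, since the rule then compares fewer libraries. Matched genes numbered 2587, or 5209 with a band of 1.5-fold. Of 49 lists with at least 5 measured genes, 18 had 50% or more of their genes shared in a single direction, against 13 with totals, 17 with RLE, 13 after correction and 0 with the 25% gap. The balance of shared higher minus lower genes changed sign for 11 of these lists. Of those described in the report they were cystine, glutathione and NRF2 (-1 with the gap), branched-chain enzymes (4 with totals, 1 with RLE), adrenergic regulators (1 with totals), neuronal cytoskeleton (1 with totals, after correction and with the gap) and DNA damage (-4 after correction). The others were cap-dependent translation factors (5 with totals), solute carriers (13 with totals), potassium channel subunits (7 with totals, 1 with the gap), YAP and SRF targets (-1 after correction), RAB GTPases (-6 after correction) and p53 targets (1 with the gap). Their causes were not tested. Genes called over both hairpins numbered 9361, and 8387 in DESeq2 to 9460 in limma-voom over the full-library alternatives without correction, 8184 after correction and 7517 to 8889 with a library left out. Called genes were 47.2% higher, and 37.9% after correction. Replicate numbers did not pair the libraries (correlations of deviations 0.0044, -0.038 and -0.033), and with a replicate block 9000 genes were called over both hairpins, 8802 with hairpin 1, 8841 with hairpin 2 and 8218 between hairpins, or 7995 over both with the correction as well. Among named genes the direction over both hairpins did not reverse in any of these fits, but after correction the hairpins had opposite signs for 5. Calls were lost for LCOR (7 settings), GLB1L (7), PI4KA (4) and HLA-C (1), and RWDD2A was called after correction (edgeR adjusted p = 0.012). At 2 libraries per group, 2858 shared genes could be called neither different nor matched between hairpins.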

Other observations

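Some lists not described above are read beside 22% shared higher and 23.6% shared lower of all tested genes. Cytochrome c oxidase and bc1 subunits had 17 of 23 measured genes shared lower and 0 higher, and ATP synthase subunits 13 of 19 and 0. Host genes of snoRNAs had 13 of 27 lower and 1 higher. Deubiquitinases named USP had 21 of 46 shared higher and 3 lower, or 14 and 10 after correction for GC content and length. Of the cell-cycle lists, S phase genes leaned downwards, with 14 of 38 lower and 1 higher. Of 34 mitotic genes 9 were lower (26.5%, near the background) and 3 higher, or 6 lower and 5 higher under library totals. The medians of both lists differed by hairpin. They were 0.01 with hairpin 1 and -0.29 with hairpin 2 for S phase, and 0.13 and -0.36 for mitosis. A called hairpin difference in edgeR was found for 33 of the 38 and 31 of the 34. Lysosome and proton pump genes had 17 of 37 lower and 5 higher. Semaphorins, plexins, ephrins and Eph receptors had 18 of 44 lower and 9 higher. p53 targets were divided, with 6 of 26 higher and 11 lower, as were heat shock chaperones (7 and 7 of 23, or 11 higher and 3 lower under library totals), mTORC1 and amino acid sensing genes (12 and 10 of 37), YAP and SRF targets (7 and 6 of 28) and mesenchymal transcription factors (6 and 6 of 23). In YAP and SRF targets the median was -0.49 with hairpin 1 and 0.36 with hairpin 2. Catecholamine genes had 4 of 15 lower and 0 higher, with medians of 0.42 and -0.46.

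The median GC content of the 250 bases before the start hardly differed between the groups, at 64.4% in shared higher, 66% in shared lower and 64.8% in all tested promoters, whereas that of the transcripts differed by over 12 percentage points, as given above.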
